A study of Mus musculus with 6 samples.

Results

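The 958 regions described here are the most densely measured promoter regions of mouse quadriceps muscle in a reduced representation bisulfite sequencing (RRBS) study, each with 60 or more listed cytosine positions within 3000 bp on an autosome. They were chosen by counting listed positions per region, with no use of methylation levels, and make up 8.91% of the 10755 regions but hold 79394 (29.5%) of the 268725 listed positions. A member held 60 to 205 listed positions (median 77), against a median of 18 over all regions, and 152 members held more than 100. The exercised samples (n = 3) were quadriceps DNA of C57BL/6 mice that ran on a treadmill for 4 weeks of training, sampled 3 hours after their last bout, and the sedentary samples (n = 3) were quadriceps DNA of C57BL/6 controls that stayed sedentary. Since the labels do not tell whether each sample is a separate animal, every p-value measures the spread between these samples. DNA of whole muscle mixes the nuclei of fibres and of other cells, and a changed share of a cell type and a changed level within a cell type cannot be told apart here.

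Dense clusters of CpG dinucleotides, called CpG islands, cover the promoters of most housekeeping genes and many developmental regulators, and they usually stay unmethylated in both active and silent states. A methylated island promoter is the exception, known from imprinted genes, germline genes and the inactive X chromosome, and goes with a silent promoter. RRBS cuts DNA with the enzyme MspI at the sequence CCGG and reads the ends of short fragments, so it samples such islands densely. Bisulfite turns unmethylated cytosine into a base read as T, and the level of a position is the percent of its reads that still show C. Cut ends are filled in during library preparation, so that some bases at fragment ends are newly made.

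The letters of the promoters show how CpG and CCGG are spread over them. For 5 members the 250 bases before the RefSeq transcript start are printed 5′ to 3′ in the direction of transcription (RefSeq windows of build GRCm38.p6), with every CCGG in capitals. Phf2 (chr13:48870886-48871135, minus strand), Egln1 (chr8:124949255-124949504, minus strand) and Dnmt3a (chr12:3806730-3806979, plus strand) stand for the mostly unmethylated members, and Hic1 (chr11:75168153-75168402, minus strand) and Peg12 (chr7:62464511-62464760, minus strand) for the few members whose median position was at 10% or more.
Phf2: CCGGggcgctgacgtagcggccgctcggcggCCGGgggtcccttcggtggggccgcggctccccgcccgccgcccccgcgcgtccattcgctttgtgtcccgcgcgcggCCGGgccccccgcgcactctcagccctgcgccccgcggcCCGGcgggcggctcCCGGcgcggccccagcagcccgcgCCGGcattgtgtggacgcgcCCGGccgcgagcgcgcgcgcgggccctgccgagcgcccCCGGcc
Egln1: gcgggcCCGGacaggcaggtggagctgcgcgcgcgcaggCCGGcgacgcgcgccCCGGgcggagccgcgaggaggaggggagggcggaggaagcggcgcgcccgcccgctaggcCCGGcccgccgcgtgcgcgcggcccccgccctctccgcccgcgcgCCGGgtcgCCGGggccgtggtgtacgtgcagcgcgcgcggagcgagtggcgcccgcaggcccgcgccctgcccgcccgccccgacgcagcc
Dnmt3a: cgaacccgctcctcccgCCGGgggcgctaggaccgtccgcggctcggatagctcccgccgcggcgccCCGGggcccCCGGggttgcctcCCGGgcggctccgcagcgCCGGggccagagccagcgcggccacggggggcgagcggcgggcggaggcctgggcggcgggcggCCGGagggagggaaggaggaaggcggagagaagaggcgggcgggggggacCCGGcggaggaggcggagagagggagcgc
Hic1: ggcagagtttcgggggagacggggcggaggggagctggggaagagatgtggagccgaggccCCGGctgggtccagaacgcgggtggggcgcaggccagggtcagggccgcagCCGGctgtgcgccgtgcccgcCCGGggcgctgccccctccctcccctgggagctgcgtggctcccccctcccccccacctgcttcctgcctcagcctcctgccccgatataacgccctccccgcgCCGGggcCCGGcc
Peg12: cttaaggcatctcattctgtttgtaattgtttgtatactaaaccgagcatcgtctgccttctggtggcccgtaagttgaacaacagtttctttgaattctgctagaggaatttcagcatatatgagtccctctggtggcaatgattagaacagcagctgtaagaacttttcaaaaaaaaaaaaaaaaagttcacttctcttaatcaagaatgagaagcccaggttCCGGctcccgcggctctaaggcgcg

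The printed stretch of Phf2, a histone demethylase with a PHD finger, held 50 CpGs and 8 CCGG at a GC content of 85.6%. That of Egln1, the prolyl hydroxylase that marks hypoxia-inducible factor for degradation, held 51 CpGs and 6 CCGG at 86.0% GC, and that of the de novo methyltransferase Dnmt3a held 38 CpGs and 7 CCGG. The stretch of Peg12 was the exception, with 8 CpGs, 1 CCGG and 42.0% GC. Over the 735 members with a RefSeq window of 300 bases (250 before and 50 after the start), the median GC content was 70.0%, the median ratio of observed to expected CpG 0.898 and the median number of CCGG 4. The 7747 other regions with a window had medians of 61.7%, 0.749 and 2. A GC content above 50% together with a CpG ratio above 0.6, the usual description of an island, was met by 645 (87.8%) of the member windows and by 69.8% of the others. CCGG, which reads the same on both strands, was found in 95.1% of member windows, in 89.0% of the windows of other regions (93.3% for regions of 20 to 59 positions) and in 52.8% of all 32851 promoter windows of that table. Composition and number of listed positions are not independent, since RRBS reads only near CCGG.

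Members lay on every autosome. They made up 14.1% of the regions on chromosome 13, the highest share, and 6.26% on chromosome 7, the lowest. None of the 205 regions on the X chromosome held more than 50 listed positions. The 3 regions with most positions after those of a zinc finger gene, Zfp777 (205), were Phf2 (204), Egln1 (197) and Nr2f2 (189), the last an orphan nuclear receptor. In all, 29 members overlapped another region of the table, but no position was listed in more than 1 region.

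Where the sequence around a position was known, the positions with a level of 10% or more lay almost entirely at the cut sites. The deposited positions could be matched exactly to the CpGs of the RefSeq window in 371 members. In them, 2075 positions inside CCGG had a median level of 65.6% (quartiles 22.4% and 97.2%), and 7866 positions in other CpGs had a median of 1.28% (quartiles 0.684% and 2.29%). A mean level of 10% or more was reached by 97.4% of the CCGG positions and by 2.03% of the others. The cut-site positions stood high in both groups, with pooled levels of 61.3%, 58.93% and 60.4% in the exercised samples 1 to 3 and 59.4%, 62.8% and 58.97% in the sedentary samples 1 to 3. The other CpGs stood at 2.63%, 2.88% and 2.43% in the exercised samples and at 2.68%, 2.18% and 2.54% in the sedentary samples. The groups overlapped in both kinds of position, with differences of -0.194 and 0.179 percentage points. The 1440 matched windows of other regions had medians of 67.9% inside CCGG and 1.51% outside.

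**Figure D1:**
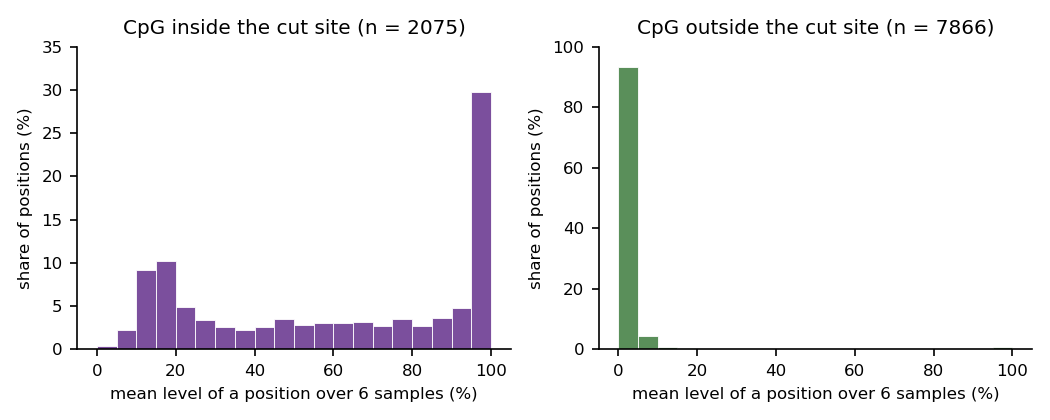
Mean level of each position over the 6 samples in the matched promoter windows of 371 members, as the share of positions in bins of 5 percentage points, for CpGs inside the CCGG cut site (left, 2075 positions) and outside it (right, 7866 positions; the vertical axes differ). Cut-site positions spread over the whole range with 29.8% in the top bin, whereas 93.5% of the other positions were under 5%.

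Phf2 shows this pattern base by base. Its 14 measured cut-site positions in the printed stretch ranged from 12.9% to 100%, and 7 of them were at 90% or more, while its 44 other positions ranged from 0% to 4.52%. Levels at the Phf2 cut sites were 60.6%, 56.4% and 56% in the exercised samples and 60%, 59.5% and 57% in the sedentary samples, with overlapping groups. Egln1 was alike, with 9 cut-site positions from 7.53% to 99% and 36 other positions from 0% to 4.85%. Of these 9, 1 belongs to a CCGG that runs past the end of the printed stretch, which is why it is not in capitals. In Dnmt3a, 4 cut-site positions ranged from 13.3% to 97.2% and 25 others from 0% to 5.28%.

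Inside a cut site the strands of a CpG differed. Of 29706 CpGs with both strands listed in the 958 members, 21922 (73.8%) were under 10% on both strands. In 4441 (14.9%) of them, 1 strand was at 90% or more while the other was at least 20 points lower, with medians of 98.6% on the higher and 17.4% on the lower strand, and only 11 CpGs were at 90% or more on both. In the matched windows 474 of 816 CCGG pairs (58.1%) had this strand difference, against 35 of 2950 other pairs (1.19%). First and second base of a CpG are counted along the plus strand, against the printed direction of a minus-strand gene such as Phf2. At position 42 before the Phf2 start the first base was at 98.6%, and its partner at position 43 was at 15.7%. Where 2 such CpGs followed each other within 150 bp, the second base was high in the first CpG and the first base in the next in 1563 of 2335 cases (66.9%), at a median distance of 37 bp (quartiles 32 and 44). The 19113 positions between them had a median level of 1.39%. The part of fill-in, digestion or read mapping in these strand differences was not tested.

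A position with a level of 10% or more whose neighbours within 100 bp (at least 3) had a median under 10% is called stand-alone below, a definition that uses levels only. The members held 18117 stand-alone positions, 22.8% of their positions and 91.5% of those at 10% or more. In the other regions stand-alone positions were 74.6% of those at 10% or more. Of the 2122 stand-alone positions in matched member windows, 1985 (93.5%) lay in CCGG. Positions at 10% or more that were not stand-alone made up 2.11% of the members' positions and 8.52% of the positions of other regions. By level, 75.1% of the members' positions were under 10%, 16.0% at 10% to 90% and 8.90% above 90%.

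The level of a whole region is the percent of all its calls that were methylated. Stand-alone positions are defined by their raised levels, so leaving them out tends to lower the level of a region by construction. The median member stood at 17% (range 8.25% to 66.4%), and at 1.94% (range 1.01% to 66.4%) without its stand-alone positions. Across the 958 members the level followed the percent of stand-alone positions with r = 0.44 and rho = 0.71, a description in which each point shares its calls between both measures. Over all members together the exercised samples 1 to 3 stood at 18.2%, 17.6% and 15.8%, and the sedentary samples 1 to 3 at 17.2%, 16.1% and 17.1%. Exercised sample 3 was the lowest of the 6, exercised sample 1 the highest, and the groups overlapped. The means were 17.2% ± 1.26 in the exercised and 16.8% ± 0.623 in the sedentary samples (SD, n = 3 each). The difference of 0.442 points was smaller than the spread within the exercised group. This difference was -0.0673 points without exercised sample 1, 0.245 without exercised sample 2, 1.15 without exercised sample 3 and 0.0837 without sedentary sample 2. Once stand-alone positions were left out, the means were 2.89% ± 0.327 in the exercised and 2.79% ± 0.320 in the sedentary samples, a difference of 0.105 points.

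The share of calls that fell on stand-alone positions moved with the level of a sample, as a larger share raises that level by construction. In the members this share was 25.6%, 25.2% and 22.4% in the exercised samples 1 to 3 and 24.3%, 22.3% and 24.7% in the sedentary samples 1 to 3. The lowest shares belonged to exercised sample 3 and sedentary sample 2, the samples with the lowest levels. The other regions had shares of 27.4%, 27.2% and 24.6% in the exercised and 26.5%, 24.2% and 26.5% in the sedentary samples. Their levels were likewise lowest in exercised sample 3 (20.1%) and sedentary sample 2 (20.6%). The level of the members' stand-alone positions themselves was 61.5% ± 1.15 in the exercised and 61.7% ± 1.67 in the sedentary samples. Exercised sample 1 was the highest of the 6 samples in 462 members (48.2%), exercised sample 3 the lowest in 392 (40.9%) and sedentary sample 2 the lowest in 292 (30.5%). The members took 31.6% to 33.1% of all calls in a sample, and median coverage of their positions was 50, 61 and 56 reads in the exercised samples and 51, 65 and 30 in the sedentary samples.

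**Figure D2:**
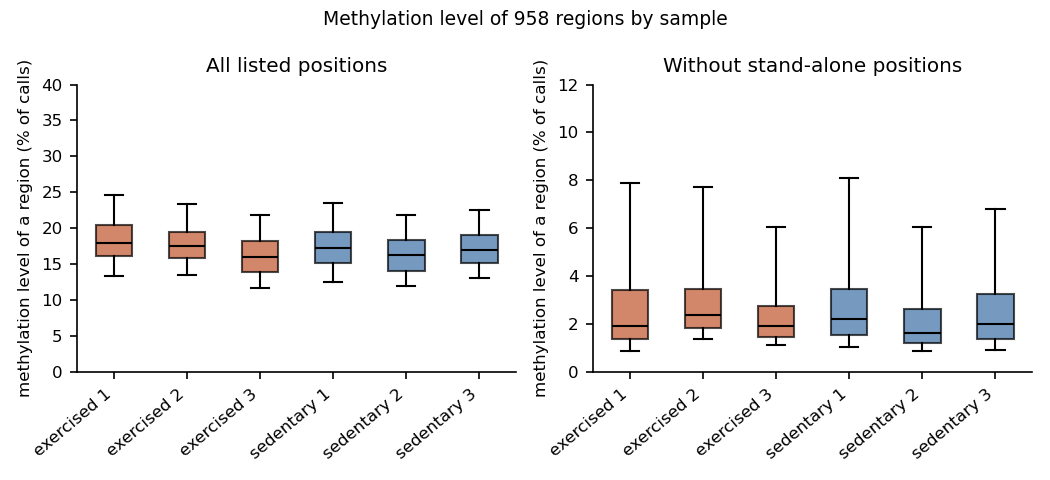
Methylation level of each of the 958 regions in each sample, with all listed positions (left) and without stand-alone positions (right). Boxes show quartiles and the median over regions, whiskers the 5th and 95th percentiles, exercised samples in orange and sedentary samples in blue; the vertical axes differ. Medians lie at 17.97%, 17.56% and 16% in the exercised and 17.2%, 16.2% and 16.9% in the sedentary samples on the left, and between 1.61% and 2.35% on the right.

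The exercised and sedentary groups were then compared region by region, to see whether any of these promoters differed in methylation after training. With edgeR's quasi-likelihood test fitted over all 10021 regions with at least 3 positions, 0 of the 958 members had an adjusted p under 0.05 (lowest adjusted p = 1.0, edgeR), as was the case for 0% of all tested regions. An unadjusted p under 0.05 was found for 4 members (0.418%), against 2.37% of all tested regions. All 4 were higher in the exercised samples (1.46% of all tested regions) and 0 lower (0.908%). limma gave 0 members at the unadjusted threshold, against 283 of all 10021 tested regions. The groups did not overlap in 37 members (31 higher and 6 lower in the exercised samples), or 3.86%, against 7.25% of all tested regions (4.91% higher, 2.35% lower). Both shares were below the background. Leaving out exercised sample 1 gave an unadjusted count of 0 members, against 169 of all 10020 regions tested in that way. Leaving out exercised sample 3 gave 98 members, all higher, against 601 of 10020 regions (530 higher, 71 lower). That fit sets exercised samples 1 and 2 against the 3 sedentary samples.

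Small differences were mostly positive. The level was higher in the exercised samples in 717 members and lower in 241 (74.8% higher, against 61.0% of all tested regions), with differences from -2.45 to 3.23 points and a median of 0.457. Of the 958 differences, 942 were within 2 points, and the median SD within a group was 1.21 points. Higher members numbered 494 when exercised sample 1 was left out and 849 when exercised sample 3 was. Without stand-alone positions 597 members were higher and 361 lower. The share of calls on stand-alone positions was higher in the exercised samples in 741 members and lower in 214, and 609 of the 741 also had a higher level. With each position given the same weight whatever its reads, 601 members were higher and 357 lower. Across members, the difference in level followed the difference in that share with r = 0.49 and rho = 0.47 (n = 958, the same calls in both). The part of the read distribution in these differences was not tested further.

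The 4 members with an unadjusted p under 0.05 were Sox11, Sp3, Kctd15 and Dvl1. The region of Sox11, an HMG-box transcription factor of neural development (chromosome 12, 28026584 to 28029583, mm9), stood at 22.2%, 19.7% and 18.6% in the exercised samples 1 to 3 and at 17.7%, 16.2% and 17.8% in the sedentary samples 1 to 3. The lowest exercised sample lay above the highest sedentary sample, with a difference of 2.92 points (edgeR unadjusted p = 0.0214, adjusted p = 1.0). Sp3, a zinc finger factor that binds GC boxes (chromosome 2, 72816339 to 72819338), stood at 16.19%, 14.86% and 14.03% in the exercised and 12.99%, 12.17% and 13.59% in the sedentary samples, also without overlap. Kctd15, a BTB-domain protein of neural crest formation, stood at 19.18%, 15.94% and 17.26% in the exercised and 14.33%, 15.10% and 15.91% in the sedentary samples, and the gap between the groups was smaller than 0.1 points. Dvl1, the Wnt pathway transducer Dishevelled, stood at 13.81%, 13.96% and 11.82% in the exercised and 11.72%, 11.17% and 10.91% in the sedentary samples, and here too the nearest samples of the groups almost met.

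Without stand-alone positions Sox11 kept its separation, with 8.82%, 7.63% and 5.88% in the exercised and 5.56%, 2.12% and 4.01% in the sedentary samples (edgeR unadjusted p = 0.025). The p of Sp3 was then 0.0656, that of Dvl1 0.0509 and that of Kctd15 0.15, each unadjusted from edgeR. Leaving out 1 sample moved the Sox11 difference between 1.92 and 3.69 points and, across the alternatives, its unadjusted edgeR p reached 0.14. A pair of further members completes the 6 with the smallest p in the higher direction. Eif4enif1, which carries the cap-binding protein eIF4E into the nucleus, stood at 19.9%, 17.5% and 16.1% in the exercised and 16.8%, 13.9% and 15.5% in the sedentary samples, with overlap. Trpm7, a channel fused to a kinase, stood at 19.3%, 18.8% and 17.8% in the exercised and 14.8%, 17.6% and 17.2% in the sedentary samples, without overlap.

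In the lower direction no member had an unadjusted p under 0.05. The smallest was that of Mllt10, a cofactor of the histone methyltransferase Dot1l, with 18.69%, 18.98% and 18.25% in the exercised and 20.31%, 22.12% and 18.71% in the sedentary samples (edgeR unadjusted p = 0.127), with overlap. Ube2r2, a ubiquitin-conjugating enzyme, stood at 17.2%, 17.4% and 16.7% in the exercised and 18.8%, 17.1% and 21.4% in the sedentary samples, where sedentary sample 3 stood apart. The Wnt ligand gene Wnt7b stood at 21.7%, 22.6% and 22.1% in the exercised and 24.2%, 22.9% and 24.0% in the sedentary samples, without overlap. The member keyed by the transcript NM_175430, which has no symbol in the table used, did not overlap either (25.96%, 26% and 24.72% in the exercised, 27.4%, 27.99% and 26.7% in the sedentary samples). Mmgt2, a magnesium transporter, and Sephs1, a selenophosphate synthetase, differed by -1.37 and -1.73 points with overlapping groups.

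**Figure D3:**
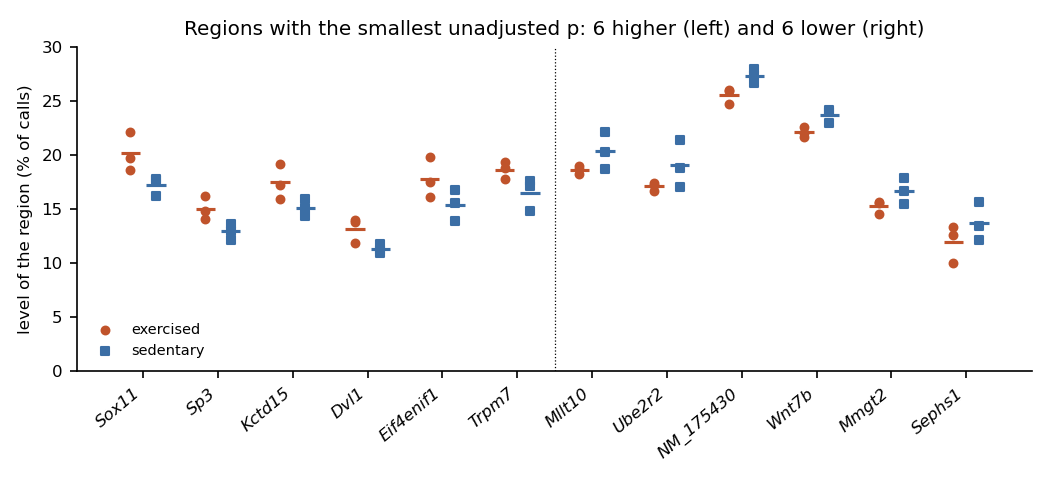
Level of the 6 members with the smallest unadjusted p in each direction, as percent of calls, with 1 point per sample (exercised in orange circles, sedentary in blue squares) and a bar at each group mean. The groups do not overlap in Sox11, Sp3, Kctd15, Dvl1, Trpm7, NM_175430 and Wnt7b.

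Leaving stand-alone positions out of all regions changed which members had the smallest p. In that fit 30 members (3.13%) had an unadjusted edgeR p under 0.05, 25 of them higher and 5 lower, against 4.61% of all regions tested in that way. The groups did not overlap in 85 members (8.87%), against 8.98% of those regions, and 0 members had an adjusted p under 0.05. Of the 30, 1 (Sox11) was among the 4 found with all positions. The following 3 were chosen after their values were seen. Fmnl2, an actin-nucleating formin, had the smallest p of the 30, with 5.0%, 4.37% and 4.22% in the exercised and 2.20%, 2.36% and 2.90% in the sedentary samples (edgeR unadjusted p = 0.00438, adjusted p = 0.999). Rbm15b, an RNA-binding protein of the Spen family, stood at 2.19%, 2.50% and 2.13% in the exercised and 1.46%, 1.28% and 1.03% in the sedentary samples. In the other direction Smad1, a transducer of BMP signals, stood at 1.19%, 1.60% and 1.64% in the exercised and 3.60%, 1.94% and 2.76% in the sedentary samples. The groups did not overlap in any of these 3 regions, and all levels were within a few percent of 0.

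At the level of single cytosines, 0 of 75139 tested member positions had an adjusted p under 0.05 (lowest adjusted p = 0.919, edgeR; 0% of all 253960 positions tested). At the unadjusted threshold 2580 (3.43%) were called, 1470 higher and 1110 lower in the exercised samples, against 3.32% of all tested positions (1.9% higher, 1.41% lower). The groups did not overlap at 4571 member positions (6.08%), 3036 of them higher and 1535 lower in the exercised samples, against 6.16% of all tested positions (4.01% higher, 2.15% lower). At the unadjusted threshold limma called 2539 member positions, against 9068 of all 253960 tested positions. With exercised sample 2 left out, edgeR called 1373 of 71942 member positions, against 4440 of all 243219. With exercised sample 3 left out, edgeR called 1387 of 72857 member positions, against 4476 of all 246457. The share called by edgeR with all samples was 2.24% among 17510 stand-alone positions and 3.80% among 57629 others. The smallest p belonged to a position of Nr2f2 (chromosome 7, 77506058), which read 0% in all 3 exercised samples and 24.2%, 7.04% and 2.44% in the sedentary samples 1 to 3 (coverage 62 to 162 reads in the exercised and 71 to 211 in the sedentary samples, edgeR adjusted p = 0.919). A position in Sart3, a splicing factor, ran the other way, with 7.14%, 36.0% and 5.08% in the exercised samples and 0% in all 3 sedentary samples. A cut-site position of Nr2f6, an orphan nuclear receptor, read 100% in all exercised samples and 70.8%, 74.0% and 100% in the sedentary samples. In each of these 3 positions 1 or 2 samples carried most of the difference.

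In the authors' deposited table, 2360 of the members' 75139 positions with a p-value (3.14%) had a p under 0.05, against 3.13% of all positions, and 1652 of them (70.0%) were higher in the exercised samples, against 68.6% of such positions over all regions. The authors' deposited table put 136 of the members' positions (0.181%, against 0.211% of all) in its strong classes, 62 higher and 74 lower. Of these 136, 120 (88.2%) were stand-alone, beside 23.3% of all the members' positions with a p-value and 91.5% of the members' positions at 10% or more. Stand-alone positions are at 10% or more by definition, so the 23.3% includes many positions that could not be stand-alone. Over all regions 378 of 537 strong positions (70.4%) in the authors' deposited table were stand-alone. The 136 positions fell in 126 members. The gene with most of them in the authors' deposited table was Rbmxl2, with 4.

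A few members had raised levels at most of their positions. Without stand-alone positions 940 of the 958 members were under 10% and 18 at 10% or more. The median position was at 10% or more in 5 members: Tmem267, Rbmxl2, Peg12, Hic1 and Cdx1. Tmem267, a transmembrane protein gene (chromosome 13, 120274846 to 120277845, mm9), had the highest level, with 63.15%, 68.98% and 63.28% in the exercised and 67.9%, 64.4% and 70.4% in the sedentary samples, and none of its 100 positions was under 10%. Its first 37 positions had a median level of 22.7% and its last 63 a median of 68.8%. Rbmxl2, an RNA-binding protein of male germ cells (chromosome 7, 114350959 to 114353958), stood at 42.5%, 45.2% and 42.4% in the exercised and 45.8%, 45.8% and 43.6% in the sedentary samples, and 76 of its 84 positions lay between 10% and 90%. The groups overlapped in both genes.

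Peg12, an imprinted gene without introns that is expressed from the paternal allele (chromosome 7, 69608397 to 69611396), stood at 33.2%, 29.9% and 26.5% in the exercised and 31.4%, 31.2% and 31.4% in the sedentary samples. The exercised samples spread around nearly equal sedentary values, and the groups overlapped. In the printed stretch its 8 positions outside CCGG ranged from 12.4% to 31.8%, above all such positions of Phf2, Egln1 and Dnmt3a, and its CCGG pair read 99.4% and 39.4%. Hic1, a zinc finger repressor and tumour suppressor gene (chromosome 11, 74980655 to 74983654), stood at 33.4%, 28.9% and 30.1% in the exercised and 30.5%, 31.0% and 28.9% in the sedentary samples. Its 7 positions outside CCGG in the printed stretch ranged from 18.6% to 28.3%. Methylation changed along Hic1, since its 49 positions farther upstream had a median level of 3.95% and the 36 positions nearer to and beyond the start a median of 26.0%. Cdx1, an intestinal homeobox gene, stood at 32.39%, 30.02% and 26.99% in the exercised and 32.8%, 28.4% and 29.4% in the sedentary samples, with overlap.

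**Figure D4:**
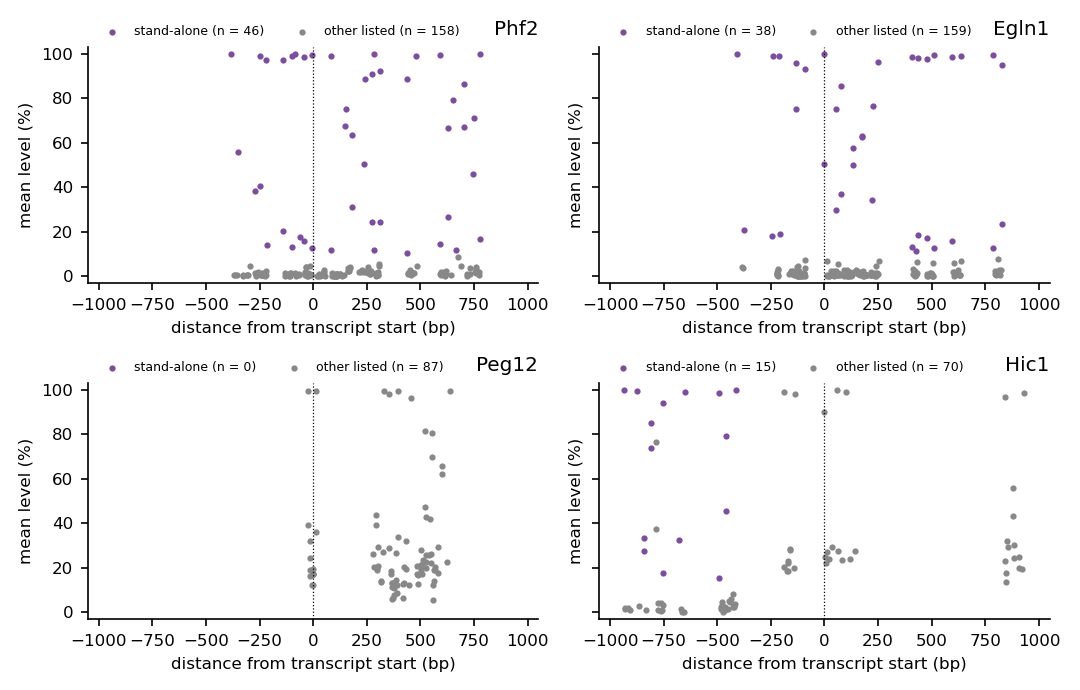
Mean level over the 6 samples of every listed position of Phf2, Egln1, Peg12 and Hic1 against its distance from the transcript start in bp; purple points are stand-alone positions and grey points all others, and the dotted line marks the start. In Phf2 (46 stand-alone positions) and Egln1 (38) a floor near 0% runs through the region below scattered high positions, in Peg12 nearly all positions lie above 10%, and Hic1 has a floor near 0% only upstream.

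Among further members, Tead3 and Hes1 combined a low median with a high upper part of their positions. Tead3, a factor of the Hippo pathway, had a median position at 3.43% but an upper quartile at 49.9%, and stood at 33.96%, 32.2% and 32.4% in the exercised and 30.5%, 31.6% and 32.3% in the sedentary samples. Hes1, a bHLH repressor downstream of Notch, had an upper quartile at 38.9% and a level of 28.2% ± 2.32 in the exercised and 26.3% ± 1.17 in the sedentary samples (SD, n = 3). Tbx1, a T-box factor of pharyngeal development, had 42 of 106 positions between 10% and 90%, with a median position at 9.17% and an upper quartile at 23.5%. The groups overlapped in Tead3 and in Hes1. The member NM_001008796, with a level of 27.5% ± 1.67 in the exercised and 27.3% ± 2.27 in the sedentary samples, had 22 stand-alone positions of 60 (36.7%) and stood at 4.59% over the 6 samples without them.

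At the low end, Cacna1d, an L-type calcium channel gene, stood at 8.16%, 9.23% and 7.83% in the exercised and 7.23%, 8.79% and 8.24% in the sedentary samples, with 7 stand-alone positions among 60. Ppp2r2c, Mark1, Kpna4 and Gm11837 followed at 9.40% to 10.6% over the 6 samples. At the other extreme of stand-alone share, Cacna1h, a T-type calcium channel gene, had 24 stand-alone positions among 63 (38.1%) and a level of 25.7% ± 0.597 in the exercised and 25.6% ± 1.12 in the sedentary samples, but 2.25% over all samples without them. Poc1b, Kcnmb4 and Sec24a, with 35.5% to 36.8% stand-alone positions, stood between 22.2% and 25.9%. The order of the members by level was thus not the order by methylation of their other CpGs, and across members these levels were related with r = 0.68 and rho = 0.46 (n = 958).

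Without stand-alone positions, methylation was lowest around the transcript start. Among the 371 matched members the level was 1.92% in the 250 bp before the start (354 members with positions there) and 1.88% in the 250 bp after it (340 members). It was 5.01% from 500 to 750 bp downstream (188 members) and 7.55% from 750 to 1000 bp downstream (97 members). Upstream it was 4.96% between -750 and -500 bp (91 members). The bins thus compare partly different members. The median position moved less, from 1.28% and 1.27% beside the start to 1.64% and 1.84% in those downstream bins. Positions at 10% or more made up 0.84% and 0.545% of the remaining positions beside the start, and 8.22% and 12.6% in those downstream bins. The 250 bp before the start stood at 2.03%, 2.19% and 1.83% in the exercised and 2.07%, 1.53% and 1.88% in the sedentary samples, and the groups overlapped there and in the bin after the start. Stand-alone positions made up 21.5% to 24.3% of the positions in each bin from -1000 to 1000 bp. Bins farther than 1000 bp upstream held at most 129 positions each and are not described.

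**Figure D5:**
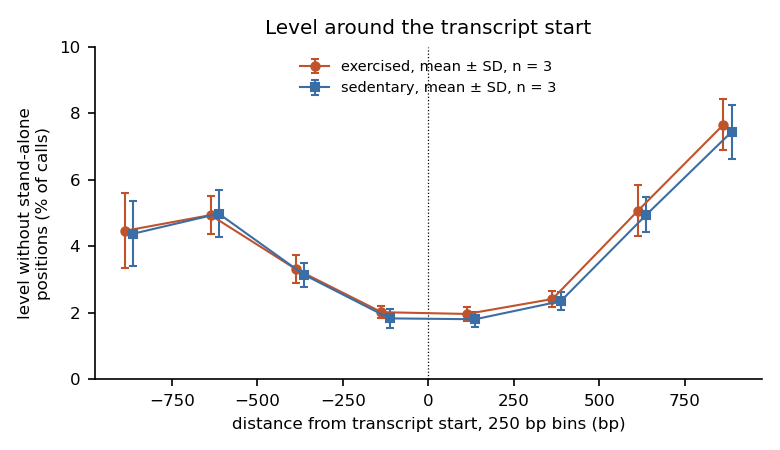
Level without stand-alone positions (percent of calls) in bins of 250 bp around the transcript start, as mean and SD of the 3 exercised (orange circles) and 3 sedentary (blue squares) samples. Of the 371 matched members, 34 to 354 had positions in a bin, so the bins hold partly different members. Both curves are lowest in the 2 bins beside the start, at 2.015% and 1.961% in the exercised and 1.828% and 1.802% in the sedentary samples.

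Dense coverage went with a small spread between samples. The median SD within a group was 1.21 points in the 958 members, 1.60 in 4036 regions of 20 to 59 positions and 2.70 in 5027 regions of 3 to 19 positions, and 1 member (0.104%), 0.248% and 9.97% of the regions stood at 50% or more. The members with the largest SD were Nudt3, Nrtn, Map3k5, Cmtm4 and Tmem267. Nudt3, an inositol-pyrophosphate phosphatase, stood at 22.1%, 15.9% and 13.03% in the exercised and 18.3%, 17.4% and 15.0% in the sedentary samples, the largest SD of the members, but at 1.62% over the 6 samples without stand-alone positions. Nrtn, a neurotrophic factor, stood at 20%, 22.9% and 18.2% in the exercised and 18.9%, 17.7% and 25.2% in the sedentary samples, with sedentary sample 3 the highest.

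The share of members differed among gene lists. On the lists used, which were drawn up with earlier results of these data known, 17 of 63 measured regions of chromatin and transcription machinery were members (27.0%), against 8.91% of all regions. Of 105 measured regions of Wnt, BMP, TGF-beta, FGF, hedgehog and Notch signalling 17 were members (16.2%), and of 76 ion channel and synaptic receptor regions 13 (17.1%). Of 95 homeobox regions outside the Hox clusters 11 were members (11.6%), and of 31 Hox regions 2 (6.45%). Of 75 regions of exercise-responsive and metabolic regulators 3 were members (4.00%), and of 33 muscle regulators and contractile genes 4 (12.1%). No list was tested for enrichment. Of the marker genes looked up for muscle fibres and other cell types of muscle, the leukocyte factor Ikzf1 was the sole member, at 15.3% ± 1.55 in the exercised and 14.9% ± 1.73 in the sedentary samples (SD, n = 3).

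No list held a member past the adjusted threshold, and only the list with Sox11 held a member past the unadjusted threshold. Sp3, Kctd15 and Dvl1 were on none of the lists used. The signalling list thus leaves out Dvl1, although it acts in the Wnt pathway. In the chromatin list 13 members were higher and 4 lower in the exercised samples, with a median difference of 0.543 points beside 0.457 for all members, and 0.0520 points without stand-alone positions. Dnmt3a stood at 13.17%, 14.17% and 12.83% in the exercised and 13.96%, 12.90% and 13.67% in the sedentary samples. Bmi1, a Polycomb protein, stood at 12.4% ± 1.14 in the exercised and 11.8% ± 0.513 in the sedentary samples, and Setd2, a histone H3 methyltransferase, at 19.2% ± 1.41 in the exercised and 18.6% ± 1.60 in the sedentary samples (SD, n = 3). The groups overlapped in Dnmt3a, Bmi1 and Setd2.

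Among the muscle genes, Srf, the serum response factor, stood at 20.9%, 21.4% and 19.5% in the exercised and 20.6%, 21.3% and 23.2% in the sedentary samples. Mef2a, a MADS-box factor of muscle differentiation, stood at 22%, 20.7% and 20.5% in the exercised and 22.4%, 19.8% and 20.9% in the sedentary samples. Lbx1, a homeobox gene of migrating muscle precursors, differed by 1.12 points. The exercise-responsive members were Akt1, a kinase of insulin signalling, Nrf1, a factor for nuclear genes of mitochondria, and Klf2, a flow-responsive factor of endothelium. Akt1 differed by 0.137, Nrf1 by 0.394 and Klf2 by 0.374 points, and the groups overlapped in all 6 genes.

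In the signalling list 11 members were higher and 6 lower, with a median difference of 0.593 points. Jag2, a Notch ligand, stood at 13.7% ± 1.27 in the exercised and 12.95% ± 0.828 in the sedentary samples, and Bmpr1a, a BMP receptor, at 13.9% ± 1.80 in the exercised and 13.1% ± 0.766 in the sedentary samples. Smad2, a transducer of TGF-beta signals, stood at 14.7%, 15.2% and 12.4% in the exercised and 12.4%, 12.5% and 13.3% in the sedentary samples, with overlap through exercised sample 3. Among the bHLH factors Hand2, of heart and limb development, differed by 2.41 points with overlapping groups (24.2%, 20.1% and 18.9% in exercised, 17.5%, 18.8% and 19.6% in the sedentary samples). The Hox members were Hoxd8 and Hoxa4, with differences of 0.652 and 0.907 points.

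The imprinted members differed in level. Beside Peg12, Gnas, which encodes the stimulatory G protein alpha subunit, stood at 26.2%, 26.3% and 21.2% in the exercised and 26.0%, 21.9% and 26.9% in the sedentary samples, and at 8.05% over the 6 samples without its 22 stand-alone positions. Zdbf2 stood at 15.1%, 15.4% and 13.2% in the exercised and 14.1%, 14.5% and 13.7% in the sedentary samples, and at 3.45% without 13 stand-alone positions. No Peg12 position met the definition of stand-alone, which asks for neighbours under 10%, and its median position was at 20.4%, below its level of 30.6%.

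The limit of 60 positions cut through a continuous range, with 47 members at exactly 60 and 50 regions at exactly 59. Just inside, Adra2c, Agpat3 and Aven stood at 17.9%, 12.7% and 11.3% over the 6 samples. Just outside, 8030462N17Rik, Adamts2 and Agap2 stood at 16.6%, 23.6% and 26.6%.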

How the data were processed

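Per the labels' protocols, RRBS was done on quadriceps DNA of 3 exercised and 3 sedentary samples. Tools named by the submitters' processing notes are Bismark 0.7.7, Bowtie 0.12.9, Trim Galore 0.2.5 and cutadapt 1.0, and the build is mm9, used for all region and position coordinates given. The authors deposited, for each position and sample, the methylated fraction and the count of covering reads, which was at least 10 throughout. Fraction times count was whole within 0.00236 reads and gave methylated counts. The authors also deposited p-values and classes per position, with no rule stated in the sources. Total coverage was 9153526 to 18656340 calls per sample. No pair of samples agreed within sampling noise (lowest mean chi-square per position 1.64).

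Counts were tested with edgeR 4.0.16 (quasi-likelihood, R 4.3.3), with a term per sample and a group term on methylated counts, over all regions with at least 3 positions or over all positions, with Benjamini-Hochberg adjustment at 0.05. The level of a region is its methylated calls over all its calls. RefSeq promoter windows (GRCm38.p6) were tied to regions by symbol and transcript, and positions to CpGs by the spacing of at least 8 listed positions, without converting coordinates. The window was matched exactly in 371 members, not exactly in 137, held under 8 listed positions in 227 and was missing in 223. Of 399 members whose spacing fitted at a single place, 282 put the start exactly 2000 bp into the region and 355 within 100 bp of that. Symbols were found for 947 members.

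Members, lists and tests were chosen with earlier results of these data known. Named are the 10 members with most positions, the 6 with the smallest p per direction, the 8 with the highest and 5 with the lowest level, the 5 with the largest SD, the 5 with the largest stand-alone share, the imprinted members, up to 3 members with most positions of each other list, and 3 at exactly 60 and 3 at exactly 59 positions. Of these, examples are given. The alternatives tried were higher coverage, a replicate block, omission of each sample, removal of the top 0.1% of coverage, removal of stand-alone positions, merged strands, limma 3.58.1, autosomes only, other minimum numbers of positions and equal weight per position.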

Additional observations from a re-analysis of the deposited data

How the results depend on the processing

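No member region and no member position had an adjusted p under 0.05 in edgeR or limma 3.58.1 under any alternative run. Member regions with an unadjusted p under 0.05 numbered 4 of 958 as reported, against 237 of all 10021 tested regions. When 1 sample was left out they numbered 0 (without exercised replicate 1) to 98 (without exercised replicate 3). They numbered 30 without stand-alone positions, 0 with limma, 13 of 1458 regions of 50 or more positions and 2 of 527 regions of 75 or more. Over all tested regions the count was 169 of 10020 without exercised replicate 1 and 601 of 10020 without exercised replicate 3. It was 456 of 9884 without stand-alone positions and 283 of 10021 with limma. Members with a higher level in exercised samples numbered 717 of 958, 494 to 849 with 1 sample left out, 412 of 527 regions of 75 or more positions and 1055 of 1458 of 50 or more. Member positions with an unadjusted p under 0.05 numbered 2580, 1373 to 2302 with 1 sample left out, and 1590 of 57629 without stand-alone positions. Over all tested positions the count was 8426 of 253960, 4440 to 7142 with 1 sample left out, and 5058 of 191361 without stand-alone positions. Whether the replicate numbers shared by the groups mark a pairing is not given in the labels. Same-number samples had correlations of 0.019, -0.219 and -0.111 in their deviations over all tested regions. Those of unlike number ran from -0.101 to 0.221, a similar scatter, so these values cannot decide it. With the replicate block there were 4 member regions at the unadjusted threshold, against 204 of all 10021 tested regions. Member positions at that threshold numbered 597 of 75139 under the block, against 1852 of all 253960 tested positions. Under it the unadjusted edgeR p was 0.0603 for Kctd15 and 0.0504 for Dvl1, which lost their call, and 0.0439 for Eif4enif1, which gained one. The smallest unadjusted edgeR p of a member under the block, 0.0274, belonged to none of the members named for the smallest p.

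The difference in mean level over the members, 0.442 points, ranged from -0.0673 to 1.15 points with 1 sample left out and was 0.174 with each position weighted equally. With limits of 20% and 80% the level classes held 80.1%, 9.42% and 10.5% of positions, at a coverage of at least 20 they held 74.5%, 17.1% and 8.45%, and with strands merged the middle class held 19.7% and the high class 5.23%. Of the 76 named regions, 73 changed in level by more than the spread between samples without stand-alone positions, and 9 in their difference. At a coverage of at least 20, 30 changed in level and 5 in their difference by that measure. With the top 0.1% of coverage left out, 7 changed in level. Leaving out stand-alone positions tends to lower a level by construction, and the cause of the other changes was not tested. Depth was lowest in sedentary sample 3, with a median of 30 reads per member position.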
